A study of Homo sapiens with 4 samples.

Results

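The genes described here are 42 regulators of pre-mRNA splicing: 11 SR proteins, the SR-like proteins TRA2A and TRA2B, 20 hnRNP proteins, 3 PTB proteins and 6 SR protein kinases. They were chosen by gene family name from a proposal made with the log2 fold changes of these same libraries known, so their values between the groups are a description and support nothing by themselves. All 42 were found among the 20263 genes of the deposited count table, and all 42 passed the filter on low counts. The cells were MDA-MB-231, a human line grown from a breast cancer that lacks the estrogen receptor. RNA was sequenced after 24 h with RB-BC, named in the series title as derived from ribociclib (an inhibitor of the cell cycle kinases CDK4 and CDK6), or with the vehicle DMSO. Each group held 2 libraries, named RB-BC 1 and RB-BC 2, and DMSO 1 and DMSO 2. Both groups were grown in serum-containing medium, and no other agent or genetic change is given for either. No label states the dose, and the treatment protocol writes Rib_CA where the sample labels write RB-BC. Whether the names mean 1 compound is not stated.

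SR proteins bind exonic RNA through RNA recognition motifs and, through a tail rich in arginine and serine, help the spliceosome to recognise nearby splice sites. Many hnRNP and PTB proteins coat nascent RNA and often oppose exon inclusion, so the balance of these families helps to set which exons are kept. SRPK kinases phosphorylate SR proteins in the cytoplasm for nuclear import, and CLK kinases phosphorylate them in the nucleus and release them from speckles. Many of these genes, SR genes above all, limit their own expression through exons that send the transcript to nonsense-mediated decay. Counts per gene, as deposited, do not separate such isoforms.

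Totals ran from 34774542 to 42786422 counts per library. DMSO 2 stood apart in its share of mitochondrially encoded transcripts, which was 10.1% and 10.3% in RB-BC 1 and RB-BC 2, 8.68% in DMSO 1 and 21.7% in DMSO 2. Of 9 markers listed for the line, 2 fell and 1 rose in the test given below, where 7.53% of all genes fell and 8.58% rose. The 9 summed to 10364 and 11154 CPM in RB-BC, against 8814 and 10687 CPM in DMSO. Both RB-BC libraries lay below both DMSO libraries for 4 of the 9 (AXL, CAV1, CAV2 and LDHB), beside 32.1% of all genes tested. They lay above for 2 of the 9 (VIM and ZEB1), beside 33.1% of all genes. ZEB1, with the largest log2 fold change of the list (0.81), had 113 and 98.2 CPM in RB-BC, against 58.0 and 62.7 CPM in DMSO. VIM had 5225 and 5465 CPM in RB-BC, against 3303 and 4147 CPM in DMSO. CAV1 had 264 and 272 CPM in RB-BC, against 572 and 574 CPM in DMSO. SPARC had at most 1.28 CPM in any library. Of 10 luminal epithelial markers, CDH1 had at most 2 counts and ESR1 at most 23 in any library. The list summed to 437 and 424 CPM in RB-BC, against 523 and 642 CPM in DMSO, mostly from KRT8 and KRT18. Both RB-BC libraries lay below both DMSO libraries for 5 of its 8 tested genes and above them for 2. Such patterns held for 32.1% and 33.1% of all genes tested. None of the 8 passed edgeR's test, and their median log2 fold change was −0.49. Of 6 leukocyte and endothelial markers, CD3E had 0 counts throughout, where the limit is 3 counts per library. The 6 together made 3.43 and 3.22 CPM in RB-BC, against 2.15 and 1.58 CPM in DMSO, and the part of these 3 marker lists in the results was not tested. CPM are counts scaled to a common library size, adjusted here between libraries by the TMM method, and they are shares of the RNA: less RNA per cell and fewer cells of a kind cannot be told apart in them.

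Transcripts of most SR and hnRNP genes were at a lower level in cells treated with RB-BC, by about the same factor in both families, whereas the kinases did not move together. Of the 42 genes, 24 fell and 1 rose in edgeR's quasi-likelihood test at an adjusted p of 0.05 over all genes. Over all 13744 genes tested, 16.1% passed, 7.53% lower and 8.58% higher. The fallen genes were 7 of 11 SR proteins, both TRA2 genes, 12 of 20 hnRNP genes, 1 of 3 PTB genes and 2 of 6 kinases, and the gene that rose was the kinase CLK3. The median log2 fold change (RB-BC over DMSO throughout) was −0.71 for the 13 SR and TRA2 genes, −0.63 for the 23 hnRNP and PTB genes and 0.10 for the 6 kinases, beside 0.00 for all genes tested. Because the genes were proposed with these fold changes in view, nothing is read from the size of those shares.

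For 33 of the 42 genes both RB-BC libraries lay below both DMSO libraries, and for CLK3 both lay above. Over all genes tested these patterns occurred in 32.1% and 33.1%. The 8 genes whose groups overlapped were SRSF9, HNRNPA0, HNRNPA1, HNRNPF, HNRNPLL, CLK2, SRPK1 and SRPK2. Summed over the 13 SR and TRA2 genes, the level was 1190 and 1238 CPM in RB-BC, against 1876 and 1884 CPM in DMSO. The 20 hnRNP genes summed to 5201 and 5536 CPM in RB-BC and to 8043 and 8063 CPM in DMSO. The 6 kinases summed to 439 and 445 CPM in RB-BC and to 434 and 387 CPM in DMSO. The SR and TRA2 sum was thus 35.4% lower and the hnRNP sum 33.3% lower in RB-BC.

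The calls rested on both RB-BC libraries. When RB-BC 1 was left out, 0 of the 42 genes passed edgeR's test, although 18 had an unadjusted p under 0.05. When RB-BC 2 was left out, 0 passed and 23 had such a p. In these fits the DMSO pair alone sets the spread. Without DMSO 2, 23 of the 25 calls were kept, with PTBP2 and CLK4 lost, and without DMSO 1 all 25 were kept. With library totals as the only scaling, 7 of the 25 passed, namely SRSF2, TRA2A, HNRNPAB, HNRNPDL, HNRNPH3, HNRNPR and CLK3. That scaling also moved the split of all genes, to 790 higher and 415 lower, beside 1179 higher and 1035 lower with TMM. The log2 fold change of each of the 25 genes kept its sign in each of the 12 alternatives run.

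**Figure D1:**
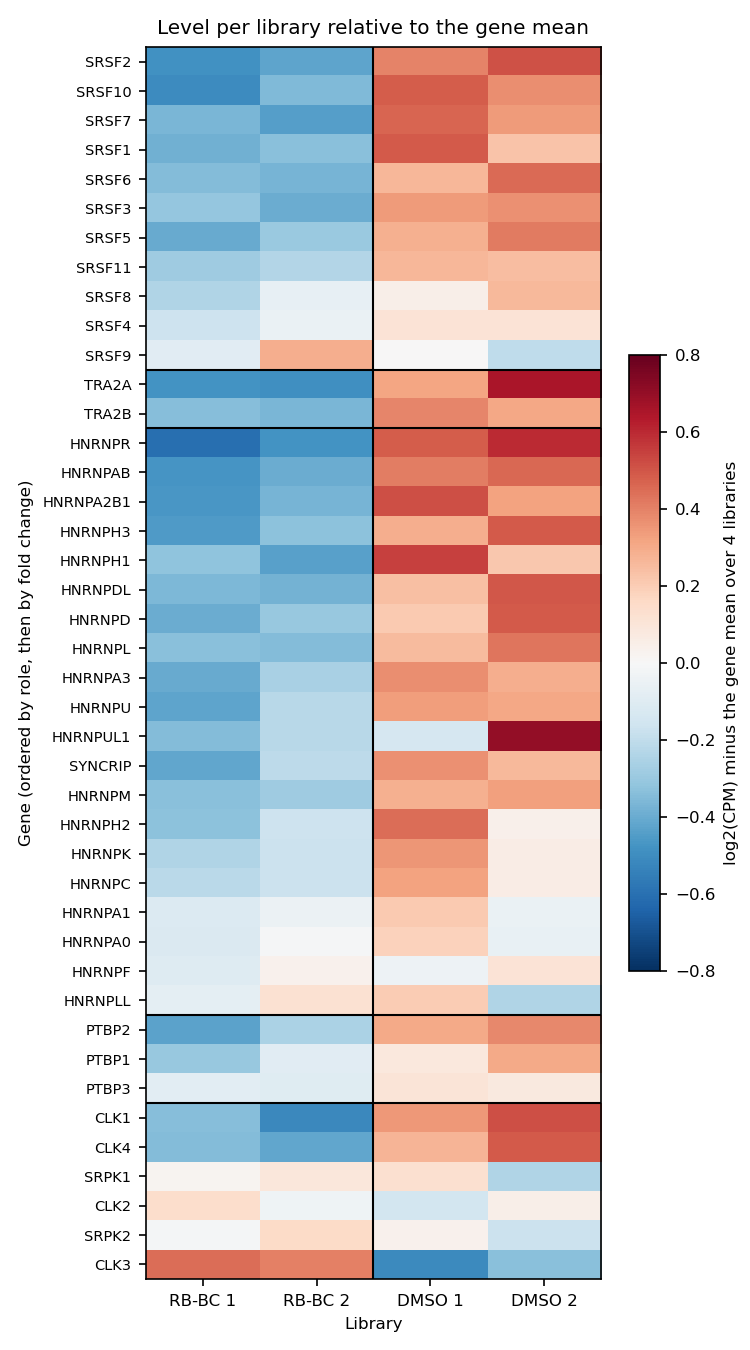
Level of each of the 42 genes (rows, by role and then by fold change) in each library (columns), as log2 CPM minus the gene's mean over the 4 libraries. Blue is below and red above that mean: most SR and hnRNP rows are blue in both RB-BC columns, CLK3 is red there, and the HNRNPUL1 row is dark red in DMSO 2 alone.

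The promoter windows of the genes were read from RefSeq on GRCh38.p14, from 250 bases before to 50 after the gene start, and 39 of the 42 genes had one. The windows below show the gene with the largest fall, 2 genes that fell and carry an E2F motif, and the CLK pair that moved in opposite directions. Each is the 250 bases before the start, read along the gene's strand, with capitals for motif matches. The motifs searched were the CCAAT box (letters CCAAT), the GC box (letters GGGCGG), the TATA box (letters TATAAA), the E2F motif (TTTCCCGC or its variant TTTGGCGC), the ETS motif (CCGGAAGT), the NRF1 core (CGCATGCG), the cyclic AMP response element (TGACGTCA) and the YY1 motif (AAGATGGC), on either strand. No motif overlaps another in these 5 windows. HNRNPR lies at chr1:23344285-23344534 on the minus strand, with CCAAT on the opposite strand at both places in capitals. SRSF10 lies at chr1:23980328-23980577 on the minus strand, with an NRF1 core and an E2F motif. TRA2B lies at chr3:185938015-185938264 on the minus strand, with an E2F motif and a GC box. CLK1 lies at chr2:200864659-200864908 on the minus strand with 2 GC boxes, and CLK3 at chr15:74608122-74608371 on the plus strand with 2 CCAAT motifs.
HNRNPR: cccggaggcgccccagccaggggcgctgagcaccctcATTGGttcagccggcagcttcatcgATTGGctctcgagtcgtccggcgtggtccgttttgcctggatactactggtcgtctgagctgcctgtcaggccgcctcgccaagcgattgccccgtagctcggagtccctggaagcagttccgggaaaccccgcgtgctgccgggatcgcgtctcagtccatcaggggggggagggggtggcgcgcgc
SRSF10: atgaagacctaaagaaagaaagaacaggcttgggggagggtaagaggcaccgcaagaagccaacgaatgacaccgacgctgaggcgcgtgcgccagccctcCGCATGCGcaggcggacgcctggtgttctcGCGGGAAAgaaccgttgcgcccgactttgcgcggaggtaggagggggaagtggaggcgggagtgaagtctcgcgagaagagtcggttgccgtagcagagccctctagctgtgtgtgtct
TRA2B: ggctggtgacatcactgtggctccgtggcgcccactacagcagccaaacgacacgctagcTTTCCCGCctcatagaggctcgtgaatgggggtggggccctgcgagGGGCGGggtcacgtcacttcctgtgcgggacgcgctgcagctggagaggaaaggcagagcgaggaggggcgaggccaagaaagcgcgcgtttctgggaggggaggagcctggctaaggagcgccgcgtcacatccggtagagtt
CLK1: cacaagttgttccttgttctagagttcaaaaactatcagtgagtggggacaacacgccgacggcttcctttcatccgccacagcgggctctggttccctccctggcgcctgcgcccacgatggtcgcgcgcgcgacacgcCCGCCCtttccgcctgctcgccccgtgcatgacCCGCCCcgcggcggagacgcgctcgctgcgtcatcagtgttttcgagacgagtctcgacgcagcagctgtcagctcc
CLK3: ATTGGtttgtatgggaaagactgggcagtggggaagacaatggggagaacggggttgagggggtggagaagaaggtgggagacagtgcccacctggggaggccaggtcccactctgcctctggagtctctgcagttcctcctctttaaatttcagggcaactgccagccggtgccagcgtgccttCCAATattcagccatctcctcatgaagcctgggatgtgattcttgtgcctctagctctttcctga

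Over the whole 300-base windows, GC boxes were found in 27 of the 39 genes (69.2%), against 44.6% of 27305 RefSeq promoters. The median GC content was 65% for the 39 genes and 58.3% for all promoters, so the 2 sets also differed in base composition. CCAAT was found in 16 genes (41.0%, against 35.7% of all promoters) and TATAAA in 5 (12.8%, against 11.95%). An E2F motif was found in SRSF10, TRA2B and HNRNPLL (7.69%, against 2.31%), of which SRSF10 and TRA2B fell and HNRNPLL did not pass. The ETS motif was found in HNRNPD, SRSF4 and SRSF5 (7.69%, against 4.44%) and the NRF1 core in SRSF10 alone. The cyclic AMP response element and the YY1 motif were found in 0 of the 39 windows, against 1.98% and 3.03% of all promoters. These are matches of letters and were not tested against the fold changes.

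Among the SR proteins, the largest fall was in SRSF2, which activates exons and also acts in transcription elongation. SRSF2 had 41.5 and 43.3 CPM in the RB-BC libraries, against 76.3 and 82.4 CPM in the DMSO libraries, a log2 fold change of −0.90 ± 0.14 (SE). Its edgeR adjusted p was 0.0148, and the groups lay far apart relative to the gap within either pair. SRSF10, a regulator that acts as a splicing repressor when dephosphorylated, had 71.2 and 78.9 CPM in RB-BC, against 141 and 131 CPM in DMSO (−0.86 ± 0.14). SRSF7, which also takes part in mRNA export, had 37.8 and 35.9 CPM in RB-BC, against 67.2 and 61.5 CPM in DMSO (−0.80 ± 0.14). Both were at about the same level in the 2 libraries of each group.

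SRSF1, the founding member of the family and a known oncoprotein, had 106 and 109 CPM in RB-BC, against 194 and 162 CPM in DMSO (−0.73 ± 0.15). SRSF6, an exon-binding activator, had 120.0 and 118 CPM in RB-BC, against 184 and 209 CPM in DMSO (−0.72 ± 0.14). For these genes the DMSO pair was more spread than the RB-BC pair, with the higher DMSO value in DMSO 1 for SRSF1 and in DMSO 2 for SRSF6. SRSF3, the smallest SR protein and a shuttling export adaptor, had 162 and 152 CPM in RB-BC, against 254 and 258 CPM in DMSO (−0.71 ± 0.14). SRSF5 had 159.6 and 172 CPM in RB-BC, against 257 and 281 CPM in DMSO (−0.70 ± 0.14). The edgeR adjusted p of these 6 genes after SRSF2 ran from 0.0182 to 0.0314.

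The remaining 4 SR genes did not pass. SRSF11 stood just at the threshold, with 78.7 and 81.6 CPM in RB-BC, against 115 and 114 CPM in DMSO (−0.52 ± 0.13, edgeR adjusted p = 0.0501). It passed in 6 of the 12 alternatives, among them DESeq2 and limma-voom. SRSF8, an intronless copy related to SRSF2, had 31.0 and 35.02 CPM in RB-BC, against 37.9 and 43.9 CPM in DMSO (−0.31 ± 0.16, edgeR adjusted p = 0.218). Within a library, the count of SRSF8 was 0.747 and 0.808 times that of SRSF2 in RB-BC, against 0.497 and 0.533 times in DMSO, a ratio that no scaling between libraries can move. SRSF4 had 92.4 and 99.6 CPM in RB-BC, against 112 and 112 CPM in DMSO (−0.22 ± 0.14).

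SRSF9, the SR protein closest in domain layout to SRSF1, was the only one of the 11 with a positive log2 fold change. It had 81.1 and 106 CPM in RB-BC, against 86.5 and 74.97 CPM in DMSO (0.21 ± 0.18, 95% interval −0.23 to 0.66), so the groups overlapped. The value rested on RB-BC 2: it was 0.39 with RB-BC 1 left out and 0.0069 with RB-BC 2 left out. The count of SRSF9 was 0.767 and 0.968 times that of SRSF1 in RB-BC, against 0.445 and 0.463 times in DMSO. The ratio of these paralogs was thus higher in both treated libraries, but it takes in the fall of SRSF1, and the level of SRSF9 alone did not pass the test.

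TRA2A and TRA2B are SR-like paralogs that bind purine-rich exonic enhancers. TRA2A had 41.0 and 40.6 CPM in RB-BC, against 70.9 and 89.9 CPM in DMSO (−0.98 ± 0.16, edgeR adjusted p = 0.0185). TRA2B had 169 and 166 CPM in RB-BC, against 280.2 and 265 CPM in DMSO (−0.70 ± 0.14, edgeR adjusted p = 0.0260). Both treated libraries gave nearly equal values for each gene, and the DMSO libraries differed more for TRA2A than for TRA2B.

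**Figure D2:**
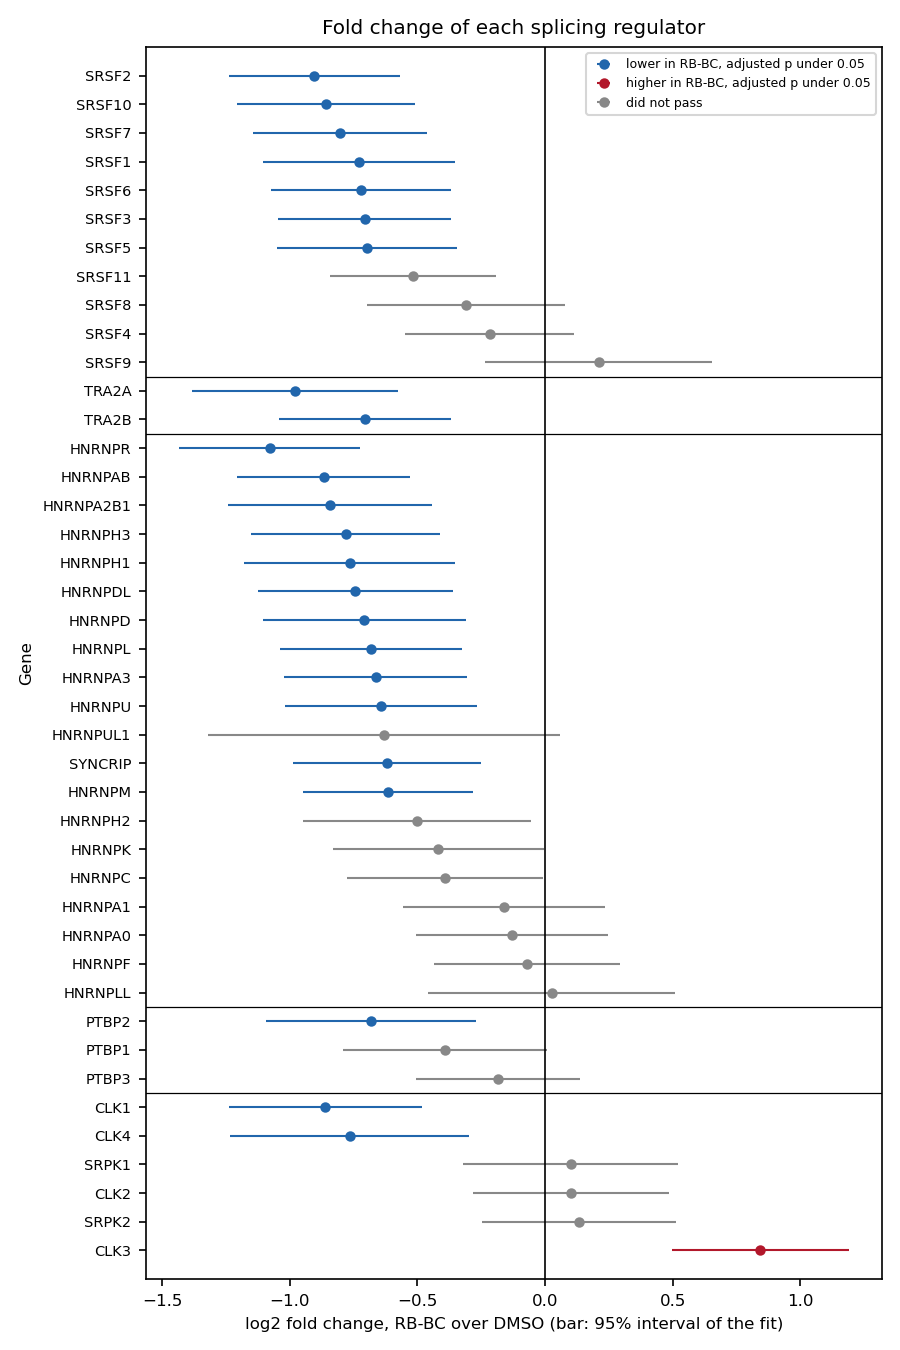
Log2 fold change, RB-BC over DMSO, of each of the 42 genes, with the 95% interval of the edgeR fit (bars). Blue points fell and the red point, CLK3, rose at an adjusted p of 0.05, and grey points did not pass. The blue points lie between −1.08 (HNRNPR) and −0.62 (HNRNPM).

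Among the hnRNP genes, HNRNPR fell most, and more than any other of the 42 genes. HNRNPR, which binds RNA in the nucleus and in neuronal transport, had 114 and 125 CPM in RB-BC, against 243 and 262 CPM in DMSO (−1.08 ± 0.14, edgeR adjusted p = 0.0114). SYNCRIP, its close paralog and an RNA-binding protein of the cytoplasm and nucleus, had 139.7 and 161 CPM in RB-BC, against 239 and 223 CPM in DMSO (−0.62 ± 0.15). Both paralogs passed, with SYNCRIP nearer to the threshold (edgeR adjusted p = 0.0431).

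In the A/B and D groups, HNRNPAB had 148 and 155 CPM in RB-BC, against 271 and 281 CPM in DMSO (−0.87 ± 0.14). HNRNPA2B1, an abundant splicing repressor that also reads methylated adenosine marks, had 696 and 745 CPM in RB-BC, against 1378 and 1204 CPM in DMSO (−0.84 ± 0.16). HNRNPA3, a relative of HNRNPA2B1, had 279 and 308 CPM in RB-BC, against 479 and 451 CPM in DMSO (−0.66 ± 0.15). These 3 fell together, whereas the best-known member of the group did not pass. HNRNPA1, which represses exons and counteracts SRSF1, had 487 and 507 CPM in RB-BC, against 606 and 505 CPM in DMSO (−0.16 ± 0.16, 95% interval −0.56 to 0.23). The count of HNRNPA1 was 0.699 and 0.680 times that of HNRNPA2B1 in RB-BC, against 0.440 and 0.420 times in DMSO. HNRNPA1 has 75 pseudogenes named after it in GENCODE release 29, the most of any of the 42, and how reads shared with such copies were counted is not known. HNRNPA0 was at −0.13 ± 0.15.

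HNRNPD, also called AUF1 and known for binding AU-rich elements in unstable mRNAs, had 259 and 276 CPM in RB-BC, against 394 and 479 CPM in DMSO (−0.71 ± 0.16). HNRNPDL, its paralog, had 206 and 203 CPM in RB-BC, against 312 and 373 CPM in DMSO (−0.74 ± 0.16). The pair moved in step: the count of HNRNPDL was 0.795 and 0.736 times that of HNRNPD in RB-BC and 0.791 and 0.777 times in DMSO, with the groups overlapping.

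The H and F group, which binds runs of guanine, was divided. HNRNPH1 had 187 and 173 CPM in RB-BC, against 341 and 271 CPM in DMSO (−0.77 ± 0.17). HNRNPH3 had 138 and 151 CPM in RB-BC, against 232 and 265 CPM in DMSO (−0.78 ± 0.15). Both passed, with edgeR adjusted p of 0.0348 and 0.0252 in that order. HNRNPH2, a near copy of HNRNPH1 in protein sequence, had 41.2 and 46.2 CPM in RB-BC, against 70.6 and 53.2 CPM in DMSO (−0.50 ± 0.18, edgeR adjusted p = 0.111). It passed when DMSO 2 was left out (−0.69, edgeR adjusted p = 0.0225). When DMSO 1 was left out, it did not (−0.28, edgeR adjusted p = 0.181). Its exons lie within a read-through gene, RPL36A-HNRNPH2, which has its own row in the table. That row had 26.3 and 25.3 CPM in RB-BC, against 9.37 and 24.6 CPM in DMSO (0.60, edgeR adjusted p = 0.344). In DMSO 1 it was lower than in DMSO 2, where HNRNPH2 was higher in DMSO 1. How shared reads were divided between the 2 rows is not known. HNRNPF, of the same group, had 334 and 366 CPM in RB-BC, against 349 and 386 CPM in DMSO (−0.07 ± 0.15, 95% interval −0.43 to 0.30). HNRNPF thus overlapped between the groups while HNRNPH1 and HNRNPH3 did not.

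The other hnRNP genes that fell were HNRNPL, HNRNPU and HNRNPM. HNRNPL, which binds CA repeats, had 176 and 174 CPM in RB-BC, against 264 and 298 CPM in DMSO (−0.68 ± 0.15). HNRNPU, a scaffold protein that binds RNA and chromatin, had 367 and 422 CPM in RB-BC, against 619.7 and 611 CPM in DMSO (−0.64 ± 0.15). HNRNPM, which opposes epithelial splicing patterns, had 158 and 163 CPM in RB-BC, against 242 and 249.96 CPM in DMSO (−0.62 ± 0.14). Their edgeR adjusted p ran from 0.0316 to 0.0419.

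HNRNPC and HNRNPK lay lower in both treated libraries without passing. HNRNPC, which measures RNA length in the hnRNP particle, had 292 and 299.9 CPM in RB-BC, against 423 and 353 CPM in DMSO (−0.39 ± 0.16, edgeR adjusted p = 0.138). HNRNPK, a binder of cytosine-rich RNA and DNA, had 585 and 615 CPM in RB-BC, against 883 and 721 CPM in DMSO (−0.42 ± 0.17, edgeR adjusted p = 0.140). Each passed with DMSO 2 left out, at −0.52 and −0.56 for HNRNPC and HNRNPK (edgeR adjusted p = 0.0297 and 0.0252). With DMSO 1 left out they were at −0.25 and −0.26 and did not pass (edgeR adjusted p = 0.157 and 0.148). HNRNPUL1, a relative of HNRNPU, had 450.0 and 489.9 CPM in RB-BC, against 522 and 932 CPM in DMSO (−0.63 ± 0.28, edgeR adjusted p = 0.171). Its value was set by the DMSO pair: leaving out DMSO 1 gave −0.99 (edgeR adjusted p = 0.0118), and leaving out DMSO 2 gave −0.15 (edgeR adjusted p = 0.375). The exons of HNRNPUL1 overlap those of TGFB1 on the opposite strand. TGFB1 had 215 and 188 CPM in RB-BC, against 134 and 221 CPM in DMSO, so it too was higher in DMSO 2 than in DMSO 1. Whether reads of one gene were counted for the other is not known. HNRNPLL, a paralog of HNRNPL known from lymphocytes, did not pass (0.03 ± 0.20).

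The PTB proteins bind pyrimidine-rich tracts and repress exons, with PTBP1 in most cells and PTBP2 in neurons. PTBP2 had 10.1 and 11.4 CPM in RB-BC, against 16.7 and 17.7 CPM in DMSO (−0.68 ± 0.17, edgeR adjusted p = 0.0446). PTBP1 had 287 and 332 CPM in RB-BC, against 375 and 437 CPM in DMSO (−0.39 ± 0.16, edgeR adjusted p = 0.147). PTBP3 had 80.5 and 79.8 CPM in RB-BC, against 91.8 and 90.2 CPM in DMSO (−0.18 ± 0.13). Both RB-BC libraries lay below both DMSO libraries for all 3, a pattern that held for 32.1% of all genes tested, and only PTBP2 passed. The count of PTBP1 was 28.5 and 29.2 times that of PTBP2 in RB-BC, against 22.5 and 24.6 times in DMSO.

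The kinases were the one class with calls in both directions. CLK3 had 82.0 and 79.6 CPM in RB-BC, against 42.3 and 47.8 CPM in DMSO, a rise of 1.79-fold (0.84 ± 0.14, edgeR adjusted p = 0.0185). CLK1 had 29.1 and 25.8 CPM in RB-BC, against 46.8 and 52.7 CPM in DMSO (−0.86 ± 0.15, edgeR adjusted p = 0.0209). CLK4, the closest relative of CLK1, had 6.92 and 6.59 CPM in RB-BC, against 10.6 and 12.4 CPM in DMSO (−0.77 ± 0.19, edgeR adjusted p = 0.0459). CLK1 and CLK4 fell alike and CLK3 moved the opposite way, with no overlap between groups for any of these 3. Over all genes tested, both RB-BC libraries lay below both DMSO libraries in 32.1% and above them in 33.1%. The count of CLK3 was 2.82 and 3.09 times that of CLK1 in RB-BC, against 0.903 and 0.907 times in DMSO. The ratio was thus higher in both RB-BC libraries, whatever the scaling between libraries. Divided by the union of annotated exons, 20443 bases for CLK3 and 5170 for CLK1, CLK3 was below CLK1 in each library. In RB-BC it had 4.01 and 3.89 CPM per kilobase against 5.62 and 4.98, and in DMSO 2.07 and 2.34 against 9.05 and 10.2. In RB-BC this order rests on the lengths, because CPM alone were higher for CLK3. The lengths of the transcripts expressed in these cells are not known.

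CLK2 had 37.2 and 32.9 CPM in RB-BC, against 30.5 and 34.8 CPM in DMSO (0.10 ± 0.16, 95% interval −0.28 to 0.49). SRPK1, the main cytoplasmic SR protein kinase, had 246 and 258 CPM in RB-BC, against 265 and 206 CPM in DMSO (0.10 ± 0.17, 95% interval −0.32 to 0.52). SRPK2 had 37.7 and 42.3 CPM in RB-BC, against 39.1 and 33.9 CPM in DMSO (0.13 ± 0.16, 95% interval −0.25 to 0.51). The groups overlapped for all 3, and these intervals leave room for a change of moderate size in either direction.

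**Figure D3:**
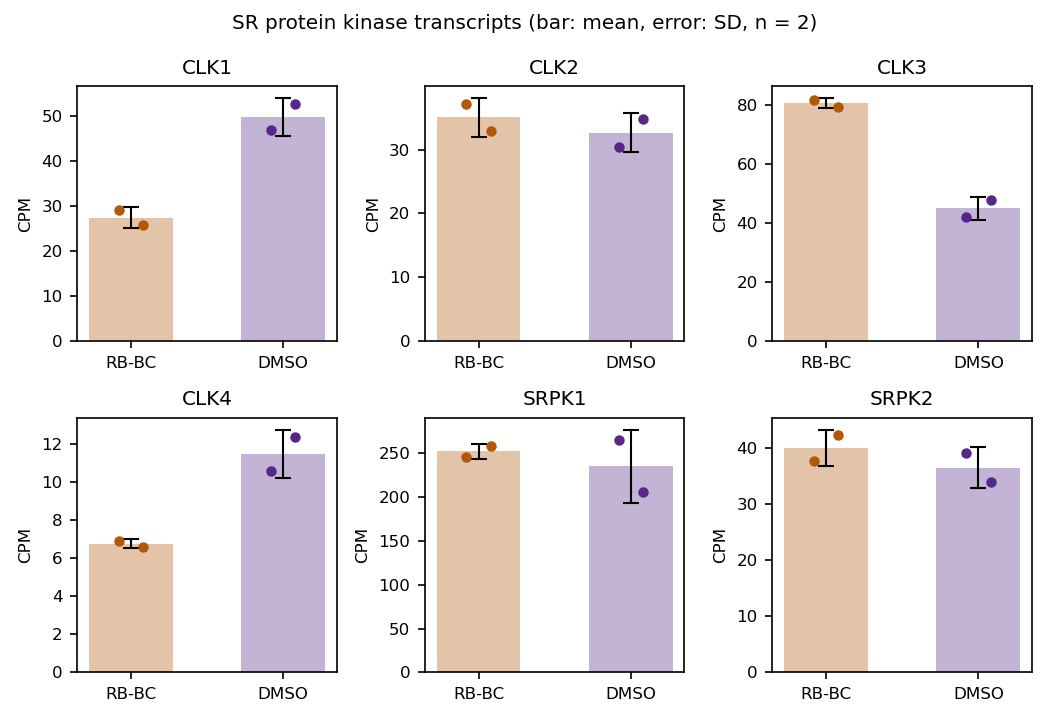
Transcript level (CPM) of the 6 SR protein kinases in RB-BC (left bars) and DMSO (right bars). Bars are means, points the 2 libraries and error bars the SD. CLK1 and CLK4 are lower and CLK3 higher in RB-BC with no overlap, and CLK2, SRPK1 and SRPK2 overlap.

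Ratios of counts were compared only between the groups. Levels were compared between genes per kilobase of exon, with the union of GENCODE release 29 exons as the length. That union takes in the exons of all annotated transcripts, from 2144 bases for HNRNPAB to 22512 for HNRNPU. It can exceed the transcripts expressed in these cells, so the ranks depend on the annotation as well as on the level. On this scale HNRNPK ranked first of the 42 genes in both groups, with 117 ± 4.09 CPM per kilobase in RB-BC and 157 ± 22.4 in DMSO (SD, n = 2). HNRNPA2B1, at 77.7 ± 3.68 CPM per kilobase in RB-BC and 139 ± 13.3 in DMSO, ranked 4 in RB-BC and 2 in DMSO, behind HNRNPK in both groups and behind HNRNPF and HNRNPA1 in the treated cells only. SRSF1 had the highest level per kilobase of the SR genes in both groups, with 32.2 ± 0.779 in RB-BC and 53.4 ± 6.84 in DMSO, close to SRSF5 with 30.9 ± 1.64 and 50.2 ± 3.22 in the same order. SRPK1, at 37.7 ± 1.29 CPM per kilobase in RB-BC and 35.1 ± 6.24 in DMSO, ranked above all SR genes in RB-BC and below SRSF1, SRSF5, SRSF6 and SRSF3 in DMSO. PTBP2 and CLK4 were the lowest in both groups. SRSF1 and SRSF5 did not differ beyond their spread in either group, nor did HNRNPK and HNRNPA2B1, or SRPK1 and SRSF3, in DMSO.

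Genes elsewhere in the splicing machinery were read from the same fit, from 6 lists of 184 genes, 180 of them tested. Of these, 29 fell (16.1%) and 4 rose (2.22%), where 7.53% of all genes tested fell and 8.58% rose. Their median log2 fold change was −0.32. The nearest to the SR genes were SR-related proteins, of which 11 of 24 fell (45.8%) and 0 rose, with a median of −0.61. The largest fall there was in PNN, which encodes the speckle protein pinin, with 116 and 123 CPM in RB-BC, against 334 and 333 CPM in DMSO (−1.48 ± 0.14, edgeR adjusted p = 0.00689). PRPF4B, a kinase of the spliceosome, was at −0.97 ± 0.13 and BCLAF1, a speckle-associated factor, at −1.07 ± 0.17. With RB-BC 1 left out, 0 of this list passed edgeR's test and 8 were lower at an unadjusted p under 0.05. With RB-BC 2 left out 1 passed, and with DMSO 1 left out 18 did.

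Of 69 core spliceosome genes, 9 fell (13.0%, beside 7.53% of all genes) and 1 rose (1.45%, beside 8.58%), with a median of −0.29. The smallest adjusted p values there were those of the helicase genes DDX46 (−1.28 ± 0.18) and DHX15 (−0.96 ± 0.15) and of SNRPD1, an Sm protein (−0.75 ± 0.13). Of 39 other splicing regulators 5 fell (12.8%) and 1 rose (2.56%), with a median of −0.31. ESRP1, which drives epithelial splicing, rose from a low level, with 7.03 and 6.50 CPM in RB-BC, against 2.95 and 3.31 CPM in DMSO (1.11 ± 0.22, edgeR adjusted p = 0.0269), while MBNL3 (−0.90 ± 0.18) and RBM25 (−1.001 ± 0.21) fell. Of 20 other hnRNP-family and related proteins 2 fell, among them EWSR1 (−1.001 ± 0.15), and 1 rose, MSI1 (2.28 ± 0.55), which stayed below 1 CPM and lost its call with DESeq2 (adjusted p = 0.0720). In that list 10% fell and 5% rose, and its median was −0.33.

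Of 16 genes of the exon junction complex and nonsense-mediated decay, 2 fell (12.5%, beside 7.53% of all genes), with a median of −0.36. They were the decay helicase gene UPF1 (−0.80 ± 0.14) and UPF3B (−1.14 ± 0.22). Of 12 genes of SR protein import and phosphorylation, 0 fell and the kinase gene DYRK1B rose (0.82 ± 0.17, edgeR adjusted p = 0.0298). The share that rose was 8.33%, beside 8.58% of all genes, and the median of the list was −0.11. Over the 6 lists together, 49 genes fell with DMSO 2 left out, 54 with DMSO 1 left out and 47 with DESeq2. With RB-BC 1 left out 0 fell by edgeR's test, where 22 were lower at an unadjusted p under 0.05, and with RB-BC 2 left out 1 fell. These lists were fixed with earlier results of these libraries known, and no test was made of whether any list differed from another or from all genes.

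**Figure D4:**
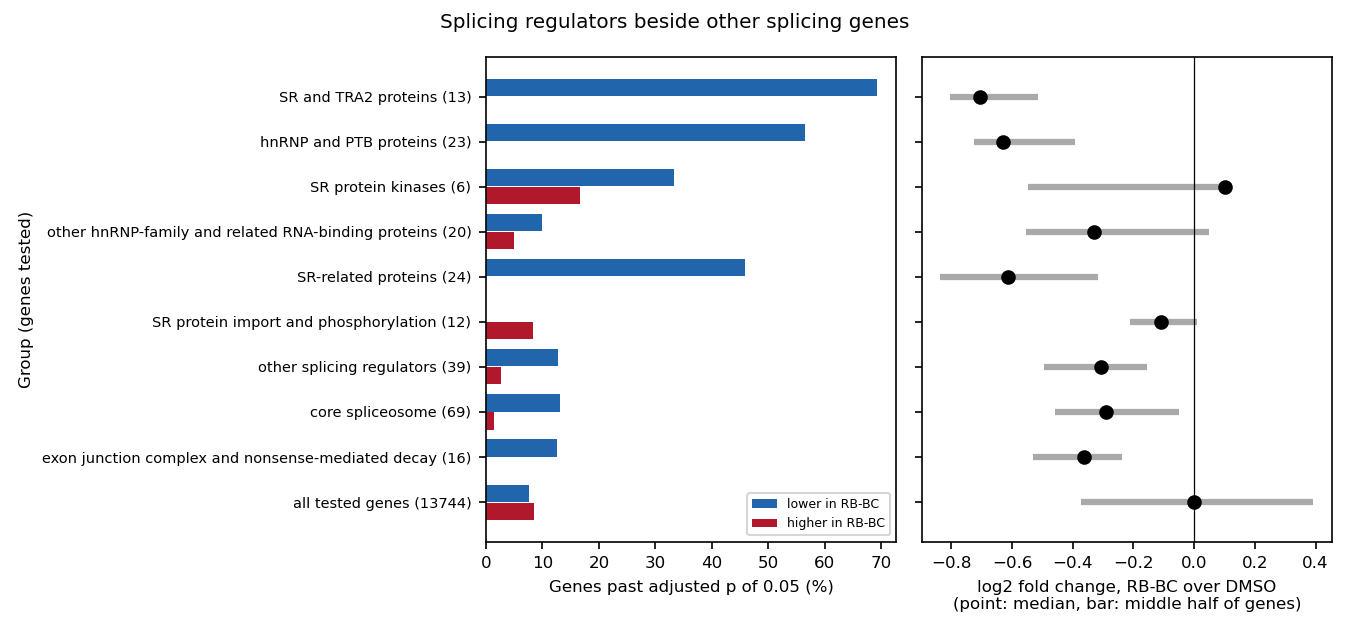
Left, share of tested genes past an adjusted p of 0.05 in each group of genes (blue lower, red higher in RB-BC). Right, the median log2 fold change (point) and the middle part of the genes from the lower to the upper quartile (bar). The median is −0.71 for SR and TRA2 genes, −0.61 for SR-related proteins and 0.00 for all 13744 genes tested.

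The counting program and its strand setting are not given, and 14 of the 42 genes have exons that overlap another gene of the count table in GENCODE release 29. Of the 25 genes called, 9 do, among them SRSF2 with MFSD11, HNRNPA2B1 with CBX3 and CLK3 with EDC3, all on opposite strands. For CLK3 the partner was level, with EDC3 at 31.3 and 29.4 CPM in RB-BC and 30.6 and 32.9 CPM in DMSO. CBX3, the partner of HNRNPA2B1, was at −0.59 on the log2 scale (edgeR adjusted p = 0.0813) and MFSD11 at 0.10. COX20, the partner of HNRNPU, was the only partner that also passed (−0.98, edgeR adjusted p = 0.0150). The other 16 called genes, all lower in RB-BC, have no such overlap. In all, 19 of the 42 genes have named pseudogenes, 129 together, and 0 of these have a row in the table.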

How the data were processed

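RNA was sequenced from MDA-MB-231 cells, 2 libraries with RB-BC and 2 with DMSO for 24 h. The authors deposited whole-number read counts per gene, judged from the values, with no normalization visible. No source used here names the aligner, counting program, strand setting or annotation. The builds named, per the submitters' processing notes, are those of mouse (GRCm38, mm10), while all 20263 identifiers are human Ensembl identifiers, so coordinates are given only for RefSeq promoters. Whether the replicates were separate cultures is not labelled, so the p-values reflect library-to-library spread, possibly technical.

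Groups and replicate numbers came from the sample titles, and symbols from a gene name table and GENCODE release 29. Genes passing filterByExpr (minimum count 10, minimum total 15; 13744 genes) were compared with edgeR 4.0.16 in R 4.3.3 by TMM scaling and a two-sided quasi-likelihood test, with Benjamini-Hochberg adjustment over all genes and a threshold of 0.05. The SE is the size of the log2 fold change over the square root of F. Checks on simulated counts preceded the fit. The smallest two-sided p of an exact permutation test at this size is 0.333. Alternatives were other scalings and filters, DESeq2 1.42.0, limma-voom (limma 3.58.1), the replicate number as a block, removal of mitochondrially encoded genes and leaving out each library.

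The genes and all lists were chosen with earlier results of these data known. Genes named with values from each library were the members past the threshold, the kinases, close paralogs and the 5 members nearest to the threshold outside it, and of each other list up to 3 genes past the threshold with the smallest adjusted p; some items are not reported here. Other genes given with values, such as HNRNPUL1, HNRNPA1, HNRNPF and SRSF4, and genes named for a promoter motif or an overlap, were chosen after their values were seen. The ratios of CLK3 to CLK1 and of HNRNPA1 to HNRNPA2B1 were not among the paralog pairs fixed beforehand.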

Additional observations from a re-analysis of the deposited data

How the results depend on the processing

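With library totals alone, 415 genes of all tested fell. Among the members 6 fell, 2 of them SR or TRA2, 4 hnRNP or PTB and 0 kinases (edgeR; 26 of the 42 were lower at an unadjusted p under 0.05), and the medians of all members, SR and TRA2, and hnRNP and PTB genes were −0.61, −0.66 and −0.57. In the 6 other lists 12 fell and 2 rose, with 4 SR-related and 3 core spliceosome genes falling and 0 core genes rising. With DESeq2, 1583 genes fell, with 47 in the lists and 16 in the core spliceosome. With no low-count filter 2 list genes and 0 core genes rose. With the replicate block, 8 hnRNP or PTB genes, 1 kinase, 7 SR-related and 5 core genes fell and 0 core genes rose; HNRNPA3, HNRNPM, HNRNPU, SYNCRIP, PTBP2 and CLK4 lost their calls. The difference between libraries 1 and 2 in DMSO was nearly uncorrelated across genes with that in RB-BC (r = −0.03). With 2 libraries per group this cannot tell whether same-numbered libraries shared a culture or day. The cause of the changes between these settings was not tested.

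Leaving out each library in turn gave 149 to 1888 genes higher and 56 to 1760 lower. Members lower numbered 0 to 26 and higher 0 to 1, SR or TRA2 genes lower 0 to 10, hnRNP or PTB genes lower 0 to 15, kinases lower 0 to 2 and higher 0 to 1. List genes lower numbered 0 to 54 and higher 0 to 7, SR-related genes lower 0 to 18, core genes lower 0 to 18 and higher 0 to 1. Each 0 came from a fit with 1 RB-BC library, whose spread is assumed to be that of the DMSO pair. The medians ran from −0.69 to −0.59 (all members), −0.69 to −0.57 (hnRNP and PTB) and −0.018 to 0.13 (kinases, lowest without DMSO 2). Over these fits signs turned for HNRNPLL (−0.18 to 0.27, below 0 at −0.076 without RB-BC 2 and at −0.18 without DMSO 2), HNRNPA0 (−0.25 to 0.0018, above 0 without DMSO 1), HNRNPF (−0.14 to 0.0057, above 0 without DMSO 2) and SRPK1 (−0.071 to 0.30, below 0 without DMSO 2), none of which passed in any fit. No gene of the 42 changed sign with another scaling, filter or tool. At this number of libraries the smallest change that passed among the members in the main fit was −0.62 (HNRNPM), and HNRNPC and PTBP1, at −0.39, did not pass. Size alone did not decide this: HNRNPUL1, at −0.63 ± 0.28, did not pass either.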
